A study of Homo sapiens with 6 samples.

Results

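The 10 genes described here encode ARID1A, its paralog ARID1B and 8 other subunits of the SWI/SNF (BAF) chromatin remodeling complexes: ARID2, SMARCA4, SMARCA2, PBRM1, DPF2, SMARCC1, SMARCB1 and BRD9. They were picked by name for their place in these complexes, with earlier results of these data known, from 52992 genes. RNA-sequencing was performed on NB4, an established acute promyelocytic leukemia cell line, in 3 groups of 2 libraries each. Every group carried Cas9 and a doxycycline-inducible vector for a small guide RNA (sgRNA), received 1 µg/ml doxycycline for 7 days, controls included, and was cultured further without doxycycline before RNA isolation. The control sgRNA was directed at lacZ, a bacterial gene that human cells lack (LacZ, labelled WT). The sg1 and sg5 groups carried sgRNAs against ARID1A, and both are labelled ARID1A-deficient (their 4 libraries are called targeted here). The cells were sorted by the fluorescent reporters of the Cas9 and sgRNA vectors and were populations, not clones, so a library can mix edited and unedited cells. In such bulk RNA, fewer cells that express a gene and less of its RNA per cell cannot be told apart. The labels do not say whether replicates came from separate cultures, so that p-values measure only the spread between these libraries.

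SWI/SNF complexes use the energy of ATP hydrolysis to move or eject nucleosomes. They come in 3 main forms that share SMARCC1 and an ATPase, which is either SMARCA4 (BRG1) or its paralog SMARCA2 (BRM). The canonical BAF complex holds either ARID1A or ARID1B, never both, together with DPF2. PBAF holds ARID2 and PBRM1, and the non-canonical complex holds BRD9. SMARCB1 belongs to BAF and PBAF and is absent from the non-canonical form. In several cancers with ARID1A mutations, cells come to depend on ARID1B, and the comparison of ARID1A with its partners therefore asks whether any paralog or partner is expressed at a higher level when ARID1A is targeted.

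The target sites are shown because their position decides which ARID1A transcripts an edit can reach. Guide letters were available only as read from page images, so these were used to find each site, and the letters printed are those of the reference transcript ARID1A-201 (ENST00000324856) in GENCODE 29, 5′ to 3′, with the PAM (the motif next to the target that Cas9 requires) in capitals.
sg1 target: gaaagcgagggccccgccgtGGG
sg5 target: gcttcgggcaaccctacggcCGG
The sg5 letters matched their site without a mismatch, and the sg1 letters matched with 1 mismatch over 20 bases. The sg1 mismatch lies near the PAM, and a misread letter cannot be told apart from a true mismatch. Both sites lie on the plus strand of chromosome 1 (GRCh38), at chr1:26696572-26696591 for sg1 and chr1:26696849-26696868 for sg5, 277 bases apart. They fall in coding sequence of exon 1 of 20 of ARID1A-201, beginning at codon 57 and codon 149 of 2285. Of the 8 ARID1A transcripts in the tables, 2 hold the sites, ARID1A-201 and ARID1A-205. The remaining 6 lack this stretch of sequence. Edits themselves cannot be read from tables of transcript abundance.

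Total estimated counts ranged from 46131178 to 54843745 per library, and each of the 10 genes had at least 3104 counts in every library. Replicate 1 of sg1 and replicate 2 of sg5 stood apart from the other 4 libraries on the first principal component (34.3 and 46.8 against -30.3 to -11.3), and values without both are given beside each call that they change. MPO, the granule peroxidase of promyelocytes, was at 5991 to 7769 TPM, but ELANE, another granule gene of these cells, was at no more than 0.290 TPM. TPM is an abundance corrected for transcript length and scaled to a fixed total per library. Summed TPM of 6 promyelocyte markers was 8139 to 9023 in LacZ and 6816 to 8059 in the targeted libraries. Sums of 3 T cell markers (12.3 to 13.7 against 14.8 to 19.4) and of 3 B cell markers (7.47 to 10.5 against 13.2 to 16.6) were higher in the latter. CD3D and CD79A held most of these sums, whereas the defining markers CD3E and MS4A1 did not exceed 0.130 TPM in any library. The part of these differences in the results was not tested.

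All 10 genes passed the filter on low counts. SMARCB1, a subunit that contacts the nucleosome, was the most abundant, with 136 ± 7.66 TPM (mean ± SD over all 6 libraries). BRD9, DPF2 and SMARCA4 followed at 74.8 ± 6.89, 74.0 ± 5.40 and 71.4 ± 3.38 TPM, and the ranges of neighbours among these 3 overlapped. SMARCC1, the scaffold on which the complexes assemble, was at 62.8 ± 2.09 TPM, below all values of SMARCA4. SMARCA2 (34.6 ± 5.52 TPM) and ARID1A (31.7 ± 5.58 TPM) came next, with overlapping ranges. The SMARCA2 level in TPM rests in part on a short transcript of 356 bases. This transcript was at 7.45 to 12.2 TPM on 1.33% to 1.78% of the SMARCA2 counts, and the main SMARCA2 transcript was at 6.07 to 14.1 TPM. In estimated counts, which are not corrected for length, SMARCA2 was below ARID1A in every library (4486 and 4158 against 8164 and 9617 in LacZ). PBRM1, a PBAF subunit with bromodomains that bind acetylated histones, was at 21.3 ± 1.44 TPM, and the DNA-binding subunit ARID2 was at 17.6 ± 1.49 TPM. ARID1B was the least abundant, with 13.5 ± 0.891 TPM, and no library overlapped with ARID2. The canonical subunit ARID1A was thus measured above its paralog in each library, as was SMARCA4 above SMARCA2.

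**Figure D1:**
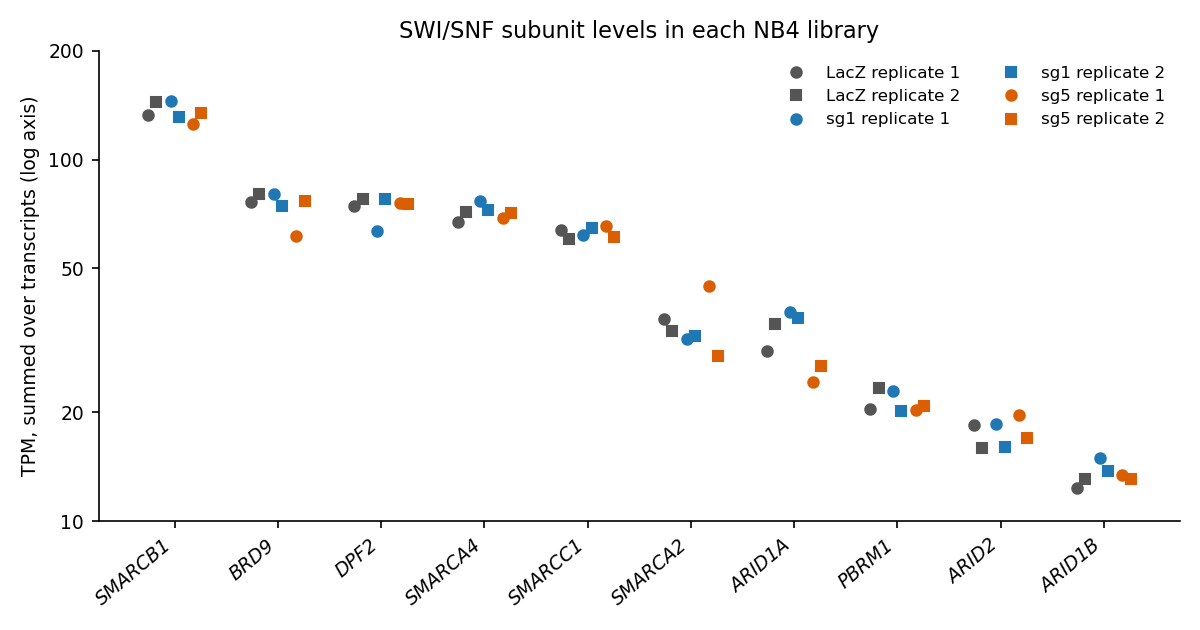
Level of each of the 10 SWI/SNF genes in TPM (log axis) in the 6 NB4 libraries, 1 point per library, ordered by mean. SMARCB1 lies between 125 and 145 TPM and ARID1B between 12.3 and 15.0 TPM. The ARID1A points of sg1 (36.4 and 37.96) lie above those of sg5 (24.3 and 26.9).

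None of the 10 genes passed the test against LacZ in either sgRNA group. At a false discovery rate (FDR) of 0.1, edgeR called 0 of them in sg1, in sg5, in both joined, and between sg1 and sg5, where 0.0378%, 0.0972%, 0.167% and 0.0054% of all 18514 genes tested were called. DESeq2 also called 0 of the 10 in each comparison. At an unadjusted p under 0.05 there were 0, 1, 0 and 1 of the 10, the 1 being ARID1A both times, against 4.15%, 7.47%, 7.21% and 1.38% of all genes. The sg5 libraries had the lowest ARID1A values and the sg1 libraries the highest ARID1B values.

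ARID1A itself (ENSG00000117713, chr1:26693236-26782110, plus strand, GRCh38) is given first. In CPM, which are counts scaled to a common library size with TMM factors, it was at 155 and 190.7 in LacZ libraries, 211 and 191.1 with sg1, and 124 and 145 with sg5. Both sg1 libraries thus lay above LacZ, in replicate 2 by a margin much smaller than the gap between the LacZ libraries, and both sg5 libraries lay below. Against LacZ, the log2 fold change of ARID1A was 0.22 in sg1 (SE 0.14, 95% interval -0.11 to 0.54, edgeR adjusted p = 0.993) and -0.36 in sg5 (SE 0.14, -0.69 to -0.04, adjusted p = 0.661, unadjusted p = 0.0332). Neither difference was called. With sg1 and sg5 joined it was -0.07 (-0.35 to 0.21, edgeR adjusted p = 0.904). A lower ARID1A mRNA level was therefore not measured in sg1, and in sg5 the interval runs from 0.620-fold to 0.975-fold of LacZ. The paper reports, by immunoblot, loss of ARID1A protein after doxycycline in NB4 cells with Cas9 and an sgRNA against ARID1A. The mRNA level does not measure protein, and whether the knockout worked was not tested with these RNA data. The direct comparison of the sgRNAs gave 0.58 (SE 0.14, 0.25 to 0.91), with an unadjusted p of 0.00317 and an edgeR adjusted p of 1.

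With both libraries that stand apart left out, sg1 and sg5 hold 1 library each, and the spread of the fit comes only from the 2 LacZ libraries. These values therefore compare single libraries, which are assumed to vary like LacZ. In that fit ARID1A was called in sg5 (-0.48, SE 0.11, edgeR adjusted p = 0.00613) and between sg1 and sg5 (0.62, adjusted p = 0.00453). The same fit called 687 of all genes in sg5 against 18 with all 6 libraries, and 128 against 1 between sg1 and sg5. Without a filter on low counts, ARID1A was also called between sg1 and sg5 (0.58, SE 0.14, edgeR adjusted p = 0.0237). That fit called 86 of all genes in this comparison, against 1 with the filter, and the ARID1A value itself stayed at 0.58. The choice of LacZ library moved both values of ARID1A. Without replicate 1 of LacZ it was 0.08 in sg1 and -0.50 in sg5, and without replicate 2 it was 0.38 and -0.21.

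Estimated counts of the individual transcripts are split by a model where transcripts share sequence, and the error of that split is not in the deposited tables. ARID1A-201, the main transcript, held 64.1% to 74.1% of the ARID1A counts. It had 6010 and 7128 estimated counts for LacZ, 7809 and 6011 for sg1, and 4039 and 4706 for sg5. The sg5 libraries were the lowest of the 6. Its log2 fold change was -0.50 in sg5 (SE 0.15, unadjusted p = 0.0181, edgeR adjusted p = 0.981) and 0.19 in sg1 (SE 0.15, unadjusted p = 0.264, adjusted p = 1), and sg1 exceeded sg5 by 0.69 (unadjusted p = 0.00482, adjusted p = 1).

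The second transcript that holds the target sites, ARID1A-205, had 262 and 582 counts with LacZ against 23.7 and 176 with sg1 and 65.3 and 36.4 with sg5. All 4 libraries labelled ARID1A-deficient were below both LacZ libraries. The joined log2 fold change was -2.43 (SE 0.82, unadjusted p = 0.0298), which was not called (edgeR adjusted p = 1.00). ARID1A-202, whose annotated start at position 26728912 lies downstream of the target sites, showed the opposite order, with 564 and 447 counts in LacZ libraries, 1450 and 836 with sg1, and 585 and 1383 with sg5. Each targeted library was above both LacZ libraries, replicate 1 of sg5 by the smallest margin. By CPM, 20.1% of all genes were separated in this way in either direction. The share among all transcripts was not determined, for their counts or for their shares of a gene. The joined log2 fold change of ARID1A-202 was 1.16 (SE 0.38, unadjusted p = 0.0275, edgeR adjusted p = 1.00).

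ARID1A-204, which begins upstream of ARID1A-201 but does not contain the target sites, had 1181 and 1315 counts for LacZ, 1265 and 1314 for sg1, and 1015 and 1153 for sg5. Its groups overlapped, and the joined log2 fold change was 0.03 (SE 0.13). ARID1A-208 is annotated as a substrate of nonsense-mediated decay, the pathway that degrades mRNA with early stop codons. It had 145 and 143 counts with LacZ against 113 and 151 with sg1 and 92.8 and 57.6 with sg5, with a log2 fold change of -0.82 in sg5 (SE 0.39, unadjusted p = 0.0867).

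Summed by target site, the 2 transcripts that hold both sites were at 119 and 153 CPM in LacZ libraries, 155 and 139 with sg1, and 87.5 and 93.8 with sg5. The 6 transcripts without the sites were at 35.9 and 37.8 CPM for LacZ, 56.1 and 51.9 for sg1, and 36.2 and 51.3 for sg5. Their share of the ARID1A counts was 23.2% and 19.8% with LacZ against 26.6% and 27.1% with sg1 and 29.3% and 35.4% with sg5. The share was higher in each targeted library than in either LacZ library. This grouping was drawn after the values of the transcripts were known and was not tested. The main transcript alone held 73.9% of counts in LacZ (mean of 2) and 69.4% in the targeted libraries (mean of 4), with no overlap, but the exact permutation test, two-sided, gave p = 0.133, which is the smallest value that 4 against 2 libraries allow (adjusted p = 0.578 over 13 such tests). By share of TPM the groups overlapped.

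**Figure D2:**
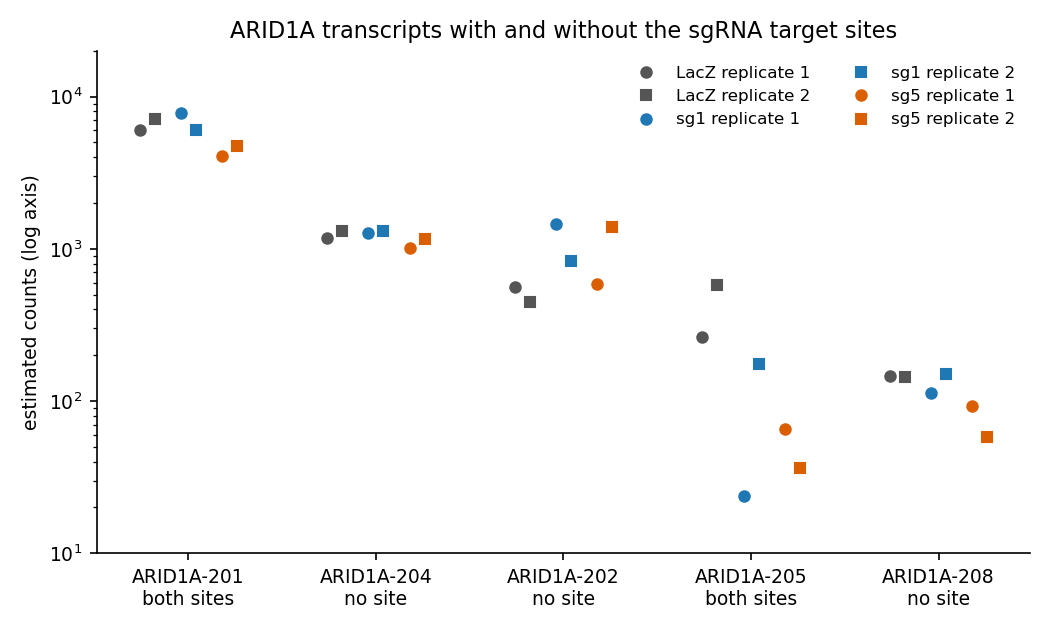
Estimated counts (log axis) of the 5 ARID1A transcripts with a mean of at least 50 counts, 1 point per library, marked by whether the transcript holds the sgRNA target sites. For ARID1A-205 the LacZ points (262 and 582) lie above all targeted libraries, and for ARID1A-202 they (564 and 447) lie below.

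ARID1B (ENSG00000049618, chr6:156776020-157210779, plus strand), which can take the place of ARID1A in canonical BAF, was at 68.0 and 72.6 CPM in LacZ libraries, 87.6 and 78.2 with sg1, and 76.0 and 73.1 with sg5. All 4 targeted libraries lay above both LacZ libraries, although replicate 2 of sg5 was only slightly above. The log2 fold change was 0.24 in sg1 (SE 0.11, 95% interval -0.02 to 0.49, unadjusted p = 0.0659, edgeR adjusted p = 0.993) and 0.08 in sg5 (SE 0.11, -0.17 to 0.34, adjusted p = 0.865). The joined value was 0.16 (SE 0.10, -0.06 to 0.39, edgeR adjusted p = 0.749). No change of ARID1B passed the test, and the upper bounds allowed a 1.41-fold higher level in sg1 and a 1.27-fold higher level in sg5. The difference between the sgRNAs was 0.15 (SE 0.11, -0.10 to 0.41). Without the libraries that stand apart, ARID1B was at 0.15 in sg1 and 0.11 in sg5, and the difference between the sgRNAs was 0.03.

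Relative to ARID1A, ARID1B was at 0.417 and 0.372 (ratio of TPM) for LacZ, 0.395 and 0.378 for sg1, and 0.553 and 0.488 for sg5. The sg1 ratios fell between the LacZ values and the sg5 ratios exceeded both. Over all targeted libraries the log2 ratio differed from LacZ by 0.18 (exact permutation test, two-sided, p = 0.533, adjusted p = 0.867 over 13 tests). In TPM, ARID1A was at 24.3 and 26.9 in sg5 against 29.6 and 35.1 in LacZ, and ARID1B was at 13.4 and 13.1 against 12.3 and 13.1.

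Among ARID1B transcripts, the main one, ARID1B-203, held 52.3% and 68.8% of the counts with LacZ against 54.6% and 57.8% with sg1 and 48.5% and 41.8% with sg5. The LacZ values spread widely, and the groups overlapped (exact permutation p = 0.400, adjusted p = 0.867). ARID1B-205 had 1147 and 642 counts in LacZ libraries, 1455 and 1071 with sg1, and 1253 and 1751 with sg5. Replicate 2 of sg1, the library with the lowest total, lay within the LacZ range of these unscaled counts. By TPM it did not, at 5.36 and 4.61 with sg1 and 5.12 and 6.39 with sg5 against 4.25 and 2.43 with LacZ. As a share of the ARID1B counts, this transcript overlapped between the groups. The joined log2 fold change of ARID1B-205, 0.73 (SE 0.27, unadjusted p = 0.0385), was not called (edgeR adjusted p = 1.00).

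ARID2 (chr12:45729665-45908040, plus strand), the ARID subunit of PBAF, was at 89.1 and 80.2 CPM for LacZ, 98.6 and 82.3 for sg1, and 94.6 and 91.4 for sg5. The sg5 libraries exceeded LacZ by CPM but overlapped with it by TPM (19.6 and 17.0 against 18.4 and 16.0), and replicate 2 of sg1 fell within the LacZ range. Log2 fold changes were 0.10 in sg1 (SE 0.13, -0.19 to 0.38) and 0.14 in sg5 (SE 0.13, -0.15 to 0.42, edgeR adjusted p = 0.790). The ARID2 to ARID1A ratio of TPM ranged from 0.455 to 0.622 in LacZ, from 0.439 to 0.488 in sg1, and from 0.634 to 0.807 in sg5, and its log2 difference over all targeted libraries was 0.11 (exact permutation test, two-sided, p = 0.8).

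Within ARID2, the main transcript ARID2-201 held 58.2% and 58.0% of the counts with LacZ against 67.1% and 64.9% with sg1 and 65.3% and 65.9% with sg5. Its share was higher in every targeted library, by 7.70 percentage points on average (exact permutation p = 0.133, the smallest possible, adjusted p = 0.578 over 13 tests), and 6.66 points by share of TPM. ARID2-208, a transcript with no annotated coding sequence, had 247 and 64.1 counts in LacZ, 0 in both sg1 libraries, and 45.2 and 44.5 in sg5. It gave the lowest p-value of any transcript of the 10 genes (unadjusted p = 0.00100 in sg1, edgeR adjusted p = 0.811), and it was not called. No fold is given for it because the sg1 libraries were at 0.

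**Figure D3:**
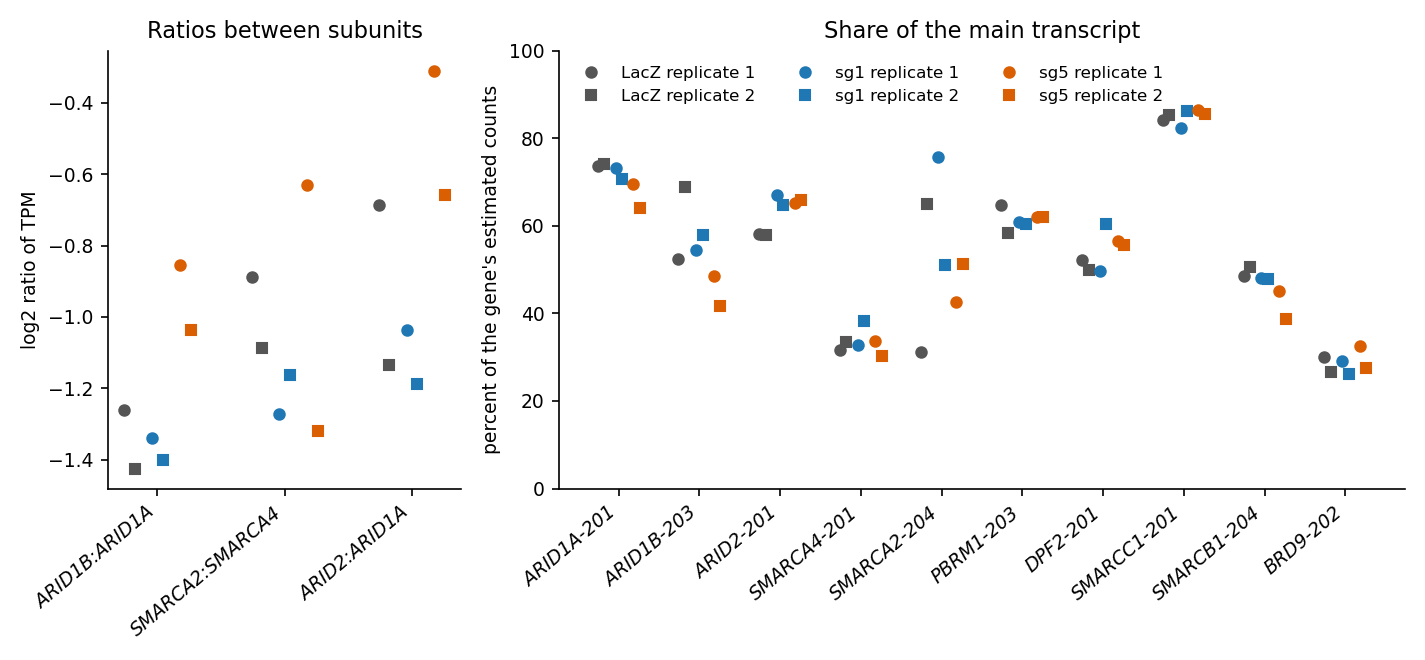
Left, log2 ratios of TPM between subunits, and right, share of each gene's estimated counts held by its main transcript (percent), with 1 point per library. The ARID1B to ARID1A ratio is higher in both sg5 libraries (-0.86 and -1.04) than in LacZ (-1.26 and -1.43), and ARID2-201 has a higher share in all 4 targeted libraries (64.9% to 67.1%) than in LacZ (58.0% and 58.2%).

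The ATPase SMARCA4 (chr19:10960825-11079426, plus strand) was at 252 and 270 CPM in LacZ libraries, 298 and 259.6 with sg1, and 253 and 264 with sg5. Apart from the high replicate 1 of sg1, the values lay within the LacZ range. Log2 fold changes were 0.10 in sg1 (SE 0.12, -0.18 to 0.37) and -0.01 in sg5 (SE 0.12, -0.29 to 0.26), and the sg1 value was -0.01 without the libraries that stand apart. Its main transcript SMARCA4-201 held 30.2% to 38.2% of the counts. SMARCA4-219, a transcript with a retained intron, had 824 and 737 counts for LacZ, 890 and 971 for sg1, and 1007 and 1292 for sg5. The log2 fold change of SMARCA4-219 was 0.65 in sg5 (SE 0.17, unadjusted p = 0.0111, edgeR adjusted p = 0.981).

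SMARCA2 (chr9:1980290-2193624, plus strand), the alternative ATPase, was at 85.2 and 82.5 CPM with LacZ against 85.5 and 91.6 with sg1 and 106 and 75.3 with sg5. The sg5 libraries gave the highest and the lowest value of all 6. The log2 fold change in sg5 was 0.12 (SE 0.16, -0.25 to 0.48), and it was 0.34 without replicate 2 and -0.14 without replicate 1. With both libraries that stand apart left out, SMARCA2 was called in sg5 on its replicate 1 alone (0.35, SE 0.11, edgeR adjusted p = 0.0620), as were 687 of all genes, with the spread taken from the 2 LacZ libraries. The sg1 value was 0.08 (SE 0.16, -0.28 to 0.44). By TPM the order of sg1 and LacZ was the opposite, at 31.9 and 32.4 in sg1 against 36.3 and 33.7 in LacZ. The SMARCA2 to SMARCA4 ratio of TPM was 0.540 and 0.471 in LacZ libraries, 0.414 and 0.446 with sg1, and 0.647 and 0.401 with sg5, with a log2 difference of -0.11 over the targeted libraries (exact permutation test, two-sided, p = 0.8). The size of this ratio depended on the measure. In LacZ its log2 value was -0.89 and -1.09 by TPM, and -1.57 and -1.71 by estimated counts, which are not corrected for length. The share of the main transcript (ENST00000357248) ranged from 31.2% to 75.7% of counts between libraries, and these extremes were a LacZ and an sg1 library.

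SMARCC1 (chr3:47585272-47782106, minus strand) was at 266 and 263 CPM for LacZ, 272 and 275 for sg1, and 283 and 271.9 for sg5. Each targeted library exceeded LacZ by CPM, by a small amount, whereas by TPM the groups overlapped (63.7 and 60.2 in LacZ, and 61.0 to 65.5 in the targeted libraries). The log2 fold changes were 0.05 in sg1 (SE 0.11, -0.20 to 0.30) and 0.07 in sg5 (SE 0.11, -0.18 to 0.32, edgeR adjusted p = 0.883). The main transcript SMARCC1-201 held 82.5% to 86.4% of its counts. SMARCB1 (chr22:23786931-23838008, plus strand) was at 144.7 and 164 CPM with LacZ against 170 and 150 with sg1 and 144.7 and 158 with sg5. Its groups overlapped, and the log2 fold changes were 0.06 in sg1 and -0.03 in sg5 (SE 0.13 each). Its main transcript (ENST00000407422) held 48.5% and 50.5% of counts in LacZ libraries, 48.2% and 47.8% with sg1, and 45.1% and 38.7% with sg5. This share was lower in all targeted libraries, and the difference of -4.54 percentage points had an exact permutation p of 0.133, again the smallest possible, with overlap by share of TPM.

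DPF2 (chr11:65333754-65353249, plus strand), a reader of histone acetylation in canonical BAF, was at 108 and 119 CPM for LacZ, 99.0 and 113 for sg1, and 112 and 115 for sg5. Only replicate 1 of sg1, the library that stands apart, lay outside the LacZ range. Its log2 fold changes were -0.10 in sg1 (SE 0.12, -0.37 to 0.17) and -0.001 in sg5 (SE 0.12, -0.27 to 0.27). Its main transcript DPF2-201 held 49.7% to 60.3% of the counts, with overlap of the groups. PBRM1 (chr3:52545352-52685917, minus strand) was at 71.1 and 68.7 CPM with LacZ against 78.8 and 69.8 with sg1 and 74.6 and 77.2 with sg5. The sg5 libraries exceeded LacZ by CPM but not by TPM, at 20.3 and 20.9 TPM against 20.4 and 23.4. The log2 fold change of PBRM1 was 0.09 in sg1 (SE 0.11) and 0.12 in sg5 (SE 0.11, edgeR adjusted p = 0.794), and the sg5 value turned to -0.08 on log2 TPM. PBRM1-203, its main transcript, held 58.3% to 64.7% of the counts.

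BRD9 (chr5:850291-892824, minus strand), which defines the non-canonical complex, was at 142 and 164 CPM in LacZ libraries, 151 and 148 with sg1, and 121 and 159 with sg5. Replicate 1 of sg5 was the lowest of all libraries, while replicate 2 lay within the LacZ range. The log2 fold change was -0.13 in sg5 (SE 0.15, -0.47 to 0.21) and -0.03 in sg1 (SE 0.15, -0.37 to 0.31). Without both libraries that stand apart, BRD9 was called in sg5 on replicate 1 alone (-0.34, SE 0.11, edgeR adjusted p = 0.0821) in the fit that called 687 of all genes with the spread of LacZ only, and without replicate 1 of sg5 the value was 0.07. Transcripts with retained introns held 45.8% to 52.7% of the BRD9 counts and the coding ones 30.5% to 37.3%, of which the main transcript BRD9-202 had 26.2% to 32.5% of all BRD9 counts. Exons of BRD9 overlap those of TRIP13 on the opposite strand (mean of 4366 counts) and of ZDHHC11 on the same strand (277). The kit named in the labels is not stated to keep strand, so reads of an overlap cannot be assigned with certainty. The same limit holds for SMARCB1 with DERL3 (783) and PBRM1 with SMIM4 (508), on opposite strands. Opposite-strand genes at ARID1A, ARID1B and SMARCA2 averaged no more than 36.3 counts.

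Medians of the 10 log2 fold changes were 0.08 in sg1 and 0.03 in sg5, beside 0.002 and -0.01 over all genes. The sg1 and sg5 comparisons share the LacZ libraries. By CPM, ARID1B and SMARCC1 were higher in all 4 targeted libraries than in both LacZ libraries and none of the 10 was lower (2 of 10), where 9.72% of all genes were higher and 10.4% lower (20.1% in either direction). Both sg1 libraries were above both LacZ libraries for ARID1A, ARID1B, SMARCA2 and SMARCC1 and below for none (4 of 10), against 16.7% and 17.4% of all genes (34.2% in either direction). Both sg5 libraries were above for ARID1B, ARID2, PBRM1 and SMARCC1 and below for ARID1A (5 of 10), against 20.2% and 21.9% (42.2%). Between the sgRNAs, ARID1A and ARID1B were higher in both sg1 libraries and none was lower (2 of 10), against 11.7% and 10% (21.8%). With groups of 2 and these background shares, the counts are given as a description. By TPM the groups overlapped for SMARCC1 and, in sg5, for ARID2 and PBRM1. By that measure sg1 was below LacZ for SMARCA2 and above both LacZ and sg5 for SMARCA4. With 95% intervals, the largest increase over LacZ that the data allowed for a gene other than ARID1A was 0.49 on the log2 scale in sg1 (ARID1B) and 0.48 in sg5 (SMARCA2).

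Of 128 listed transcripts of the 10 genes, 91 were tested, and edgeR called 0 of them and 0 of all 78622 transcripts in each comparison. At an unadjusted p under 0.05 there were 2 of 91 in sg1, 5 in sg5, 6 in both joined and 2 between sg1 and sg5, against 3.02%, 4.71%, 4.32% and 2.87% of all transcripts. Limma on log2 TPM also called 0 of the 91.

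**Figure D4:**
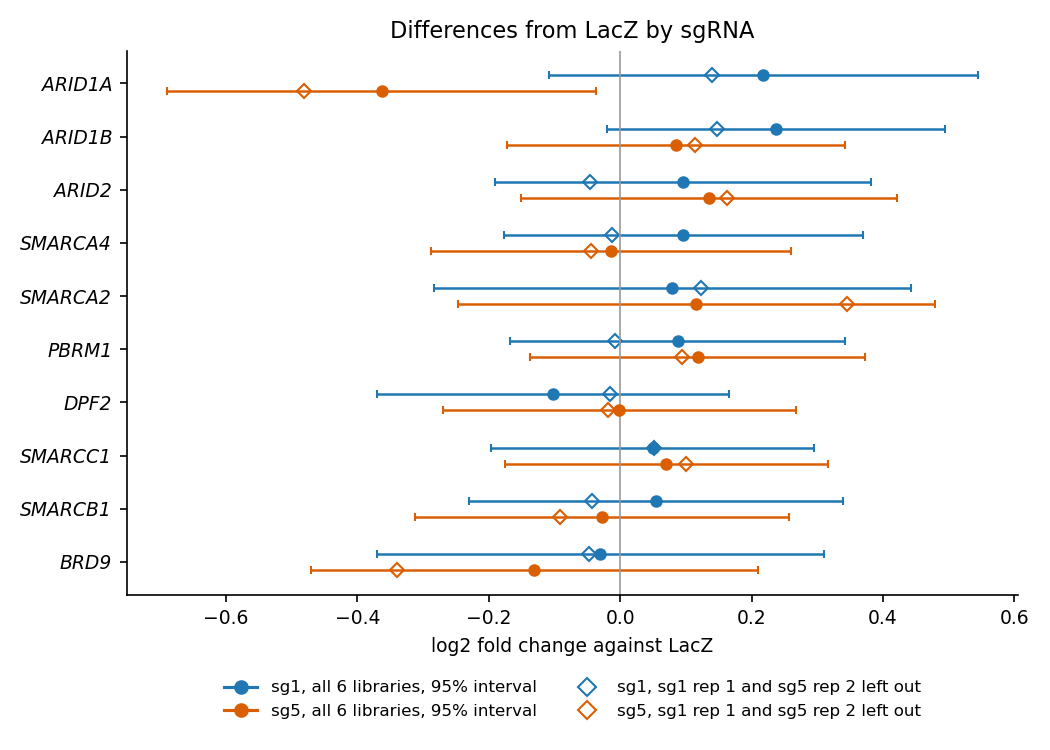
Log2 fold change against LacZ of the 10 genes in sg1 and sg5 (filled points, all 6 libraries, bars are 95% intervals of the edgeR fit), and the value with replicate 1 of sg1 and replicate 2 of sg5 left out (open diamonds). Of 20 intervals, only that of ARID1A in sg5 (-0.69 to -0.04) lies wholly on 1 side of 0.

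The other subunits and related remodelers were examined by 3 lists of genes. Of 21 other SWI/SNF subunits, 20 were tested, and 0 were called in any comparison by edgeR or DESeq2. ACTL6B, the actin-related subunit of the neuronal complex, was not expressed at a testable level. The joined log2 fold changes had a median of -0.01 (all genes -0.01) and ranged from -0.34 to 0.16. SMARCD3, an accessory subunit known from heart muscle, had the lowest value. It was at 34.7 and 32.7 TPM for LacZ, 24.3 and 30.1 for sg1, and 29.5 and 21.1 for sg5, below LacZ in each targeted library (-0.34, SE 0.13, unadjusted p = 0.0293, edgeR adjusted p = 0.631). It was the 1 subunit of the 20 with an unadjusted p under 0.05 in the joined comparison, where 7.21% of all genes had one. The next lowest was BCL11B, a lymphoid transcription factor, at no more than 0.103 TPM (-0.17, SE 0.36). The highest were SMARCD1, the paralog of SMARCD3 (0.16, SE 0.11), and SS18 (0.16, SE 0.09).

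Of 11 other genes with an ARID DNA-binding domain, all were tested and 0 were called by edgeR or DESeq2, with a median joined log2 fold change of 0.09 (all genes -0.01). ARID5A alone had an unadjusted p under 0.05 in the joined comparison (1 of 11, against 7.21% of all genes). ARID5A, an RNA- and DNA-binding protein of inflammatory responses, was at 23.7 and 24.8 TPM with LacZ against 18.9 and 20.02 with sg1 and 17.6 and 17.4 with sg5. It was lower in each targeted library (-0.35, SE 0.10, unadjusted p = 0.00678, edgeR adjusted p = 0.398). ARID3C was at 0.573 to 1.34 TPM and had the lowest value (-0.43, SE 0.35), while ARID3B (0.17, SE 0.11) and JARID2, a partner of the Polycomb repressive complex (0.15, SE 0.09), had the highest.

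Of 16 ATPases of other remodelers, 15 were tested and 0 were called by edgeR or DESeq2. SMARCA1 was listed at 0 TPM in every library. At an unadjusted p under 0.05 there were 0 of 15 in the joined comparison and 2 in sg5, against 7.21% and 7.47% of all genes. The median joined log2 fold change was 0.02 (all genes -0.01). CHD8 was at 23.1 and 21.8 TPM in LacZ libraries, 27.6 and 25.0 with sg1, and 27.3 and 27.9 with sg5, and it had the highest value (0.24, SE 0.12, unadjusted p = 0.0731, edgeR adjusted p = 0.738). HELLS, a helicase that supports DNA methylation, followed (0.23, SE 0.11). CHD5, at 1.02 to 2.04 TPM, and CHD3 had the lowest values (-0.38, SE 0.20, and -0.11, SE 0.09).

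**Figure D5:**
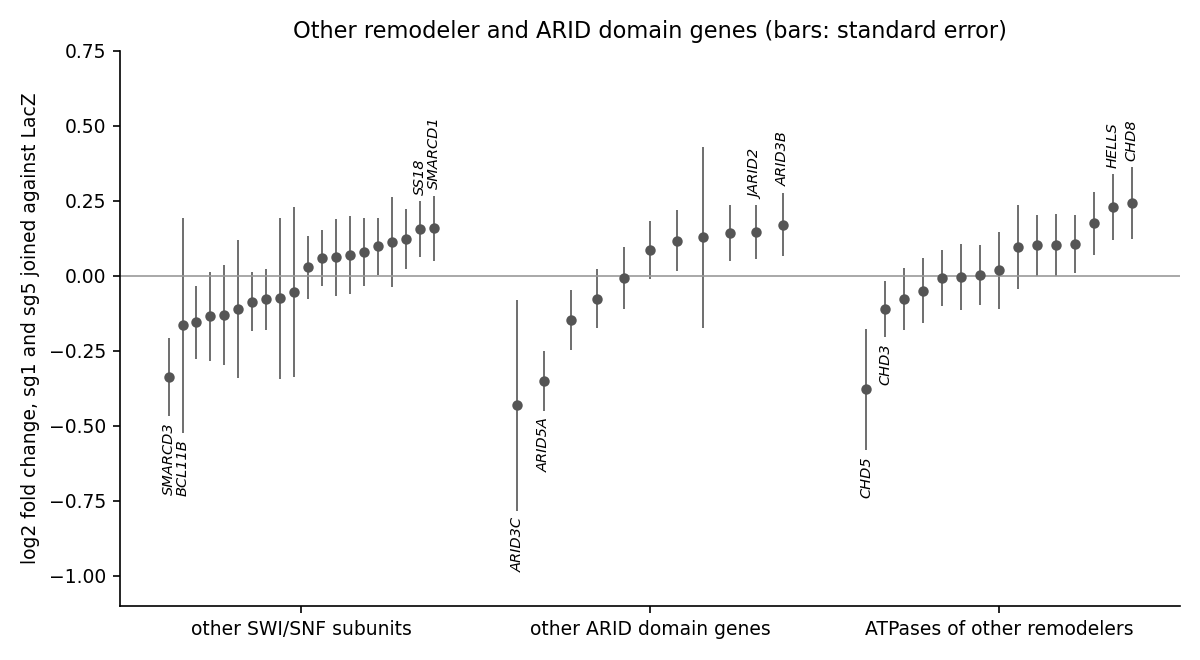
Joined log2 fold change (sg1 and sg5 against LacZ, bars are standard errors) of the tested genes of the 3 lists, sorted within each list, with the 2 highest and 2 lowest named. Values lie between -0.43 (ARID3C) and 0.24 (CHD8), and none was called.

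Over the 6 libraries, the genes whose log2 CPM followed ARID1A most closely were PITPNM2 (Pearson r = 0.993), AL139423.1 (0.991) and ZFP64 (0.985), among 13130 genes that averaged 50 counts or more. For ARID1B they were FCN1, a secreted lectin of monocytes (0.978), CELSR1, a planar polarity cadherin (0.977), and MXD4, a partner of MAX (0.975). With 6 points that share depth and group structure, these are the top of a ranking of many genes and are given as a description.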

How the data were processed

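Per the labels, the authors prepared TruSeq RNA libraries and used kallisto, DESeq2 and the build hg19. Their methods name a DESeq2 version, and a kallisto version only for reads aligned to a mouse transcript set, while the human transcript set is not given in the sources used here. The deposited tables hold, per transcript, estimated counts and TPM, which the authors' tool scaled by effective length. Identifiers of 181857 of 196354 transcripts (92.6%) were found in GENCODE 29 (GRCh38), and these were added up to 52992 genes and rounded. The other transcripts were not used. Coordinates are 1-based and come from that match. Totals of 46131178 to 54843745 estimated counts per library limit precision less than the spread between 2 replicates does.

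Group differences were fitted in edgeR 4.0.16 (R 4.3.3) with TMM normalization, its default expression filter at a minimum of 10 counts, and robust quasi-likelihood F-tests. One fit held all 6 libraries with group as its term. Benjamini-Hochberg adjustment ran over all 18514 genes, at the FDR of 0.1 that the study used. The common biological coefficient of variation was 16.6%. The 78622 transcripts were tested likewise. Shares and ratios were compared by exact permutation over libraries (scipy 1.17.1, Python 3.11.15). Alternatives were DESeq2 1.42.0, limma 3.58.1 on log2(TPM + 1), other size factors, filters and thresholds, a length offset, a replicate block and omitted libraries. A crossed block was chosen after seeing the data. The fits were first tested on simulated counts.

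The 10 genes and the 3 lists were chosen with earlier results of these data known. The text names the 10 genes, the main transcript of each (highest mean TPM), ARID1A transcripts averaging 50 counts or more, any list gene that was called, the 2 highest and 2 lowest of each list, and the 3 genes most like ARID1A and ARID1B. ARID1B-205, ARID2-208, SMARCA4-219 and the marker genes were named after their values were seen, and so was the grouping of transcripts by target site. Replicate numbers are those of the sample titles. By these numbers, correlations of deviations from group means were 0.07 (LacZ and sg1), 0.01 (LacZ and sg5) and -0.21 (sg1 and sg5). With 2 libraries per group, and libraries that stand apart in sg1 and sg5, these values cannot show whether the numbers pair the libraries.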

Additional observations from a re-analysis of the deposited data

Results flagged for a closer look

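ARID1A lay above both LacZ libraries in both sg1 libraries and below them in both sg5 libraries, so that the sgRNAs against the same gene stood on opposite sides of the control. For replicate 2 of sg1 this rests on a near tie (191.1 CPM against 190.7 in replicate 2 of LacZ). The sg1 value exceeded the sg5 value by 0.58 on the log2 scale, and this difference was not called (edgeR adjusted p = 1). It was called without a low-count filter, in a fit that called 86 of all genes in this comparison against 1 with the filter. It was also called without the libraries that stand apart, where 1 sg1 library is compared with 1 sg5 library and the spread comes from LacZ only. Among the 4 libraries labelled ARID1A-deficient, 36 values (CPM, TPM, ratios and shares) were examined for a library far from the others by Dixon's 95% limit, which chance passes in about 1 of 20 groups, and 1 passed. This was the TPM of DPF2, at 63.3 in replicate 1 of sg1 against 75.3 to 77.6 in the other 3, with a gap of 0.843 of the range.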

How the results depend on the processing

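Over 19 alternatives, 24 log2 fold changes of the 10 genes gave 454 values, of which 411 kept direction and call, 38 (of 13 results, the largest 0.13 in size with all libraries) changed sign, and 5 gained a call. The number of the 10 genes called stayed at 0 except without a low-count filter (1 between sg1 and sg5, ARID1A) and with both libraries that stand apart left out (3 in sg5, which were ARID1A, SMARCA2 and BRD9, and 1 between sg1 and sg5, ARID1A). With single libraries left out it was 0 to 0. With the replicate block it was 0 in every comparison (ARID1A in sg5 -0.36, edgeR adjusted p = 0.825), and whether the numbers pair the libraries is not known. With a length offset, ARID1A in sg5 was -0.29 (SE 0.13, edgeR adjusted p = 0.708). Under either setting, 0 of the 10 genes had an unadjusted p under 0.05 in sg5. In sg1, omitting both libraries that stand apart turned ARID2 to -0.0464, SMARCA4 to -0.0120, PBRM1 to -0.0073 and SMARCB1 to -0.0426. A length offset, without and with the replicate block, gave SMARCA2 -0.0833 and -0.0796 and BRD9 0.0208 and 0.0247 in sg1, and SMARCA4 0.0673 and 0.0674, PBRM1 -0.0380 and -0.0376 and DPF2 0.0435 and 0.0442 in sg5. Limma on log2 TPM gave SMARCA2 -0.1164, PBRM1 -0.0244 and SMARCB1 -0.0044 in sg1, and SMARCA4 0.0161 and PBRM1 -0.0825 in sg5. DPF2 in sg5 was 0.0092 with DESeq2 or its size factors, 0.0010 with the block and 0.0019 with the crossed block. By counts the log2 SMARCA2 to SMARCA4 ratio differed by 0.0465, and by TPM the share of SMARCA4-201 differed by -0.195, that of PBRM1-203 by 2.59 and that of ARID2-201 by 6.66 percentage points. Leaving out single libraries, where a lone sample is assumed to vary like the other groups, gave in sg1 ARID2 -0.0408 to 0.2203, SMARCA4 -0.0064 to 0.1919, PBRM1 -0.0016 to 0.1719, SMARCB1 -0.0369 to 0.1477 and BRD9 -0.1275 to 0.0748. In sg5 it gave SMARCA4 -0.0614 to 0.0354, SMARCA2 -0.1419 to 0.3437, DPF2 -0.0669 to 0.0681, SMARCB1 -0.1142 to 0.0653 and BRD9 -0.3417 to 0.0669. ARID1A in the joined comparison ran from -0.2143 to 0.0851, the latter without replicate 2 of LacZ. Calls among all genes (7 in sg1, 18 in sg5, 31 joined, 1 between the sgRNAs) became 116, 201, 264 and 5 with DESeq2, 345, 632, 701 and 86 without a filter, 1, 1, 3 and 0 with the replicate block, 59, 157, 194 and 2 with the crossed block, 3, 4, 4 and 0 with limma, 376, 687, 753 and 128 without both libraries that stand apart, and 0 to 25, 0 to 54, 1 to 155 and 0 to 7 with single libraries left out. A fit of only the groups compared does not apply to the joined comparison and was not run there. The cause of these changes was not tested.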
